A study of Homo sapiens with 48 samples.

Results

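Human fibroblasts with a disrupted GLIS3 gene were compared before and 6 h after the addition of transforming growth factor-β (TGFβ) and interleukin-1β (IL-1β), to describe the early transcriptional response to these cytokines in cells that had received a guide RNA against this zinc-finger transcription factor. The 6 libraries labelled as GLIS3 knockout at 0 h and 6 h, 3 at each time, were chosen by their labels out of 48 libraries in the series. The series measured mRNA over a time course of both cytokines in fibroblasts in which GLIS3 was knocked out or activated, each beside its own control. The cells were immortalized skin fibroblasts (the CRL-4001 line) with the fluorescent protein mNeonGreen knocked in at IL11 as a reporter, and single-cell clones had been sorted when the reporter line was made. Knockout cells at both times expressed Cas9 and a lentiviral GLIS3 guide. They had been selected as a bulk population, so each library averages over cells with different edits, and cells that kept an intact GLIS3 are not separated. At 0 h they had received no cytokine, and at 6 h they had received TGFβ and IL-1β at 10 ng per ml each. Cells with Cas9 and a control guide, sampled at the same times (3 libraries each), serve for comparison and share no library with the knockout response. The groups are called GLIS3 CRISPRko and control. The study describes its cell culture experiments as made with independent biological replicates, and the labels do not tie single libraries to cultures. The p-values below measure the spread between these libraries.

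IL-1β signals through its receptor, MYD88 and IRAK kinases to the NF-κB and MAP kinase pathways, which switch on chemokines, cytokines and their own inhibitors within hours. TGFβ signals through type I and type II receptor kinases to SMAD transcription factors, which induce matrix and contractile genes and the inhibitory SMAD7. IL11 is a cytokine of the IL-6 family that fibroblasts make in response to TGFβ.

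The sequences below show the genomic match of the GLIS3 guide and motif matches in the promoters of some strongly induced genes. Stretches are printed only for genes with a match, so they do not show how common a match is. CCL2, TRAF1, BIRC3 and SOD2, which also rose strongly, were looked up too and gave no upstream stretch to print. The GLIS3 guide matched 1 site with an NGG motif in GRCh38, at chr9:4117887-4117906 (minus strand), which lies in coding exon 4 of GLIS3, and its PAM is in capitals. The guide of the control cells, which the study describes as non-targeting, also matched 1 site with an NGG motif, in coding exon 15 of SBNO1. Editing was measured here at neither site. In the promoters (RefSeq, GRCh38.p14) capitals mark a κB motif, the binding element of NF-κB, searched as GGANNTTCC on both strands, or an AP-1 motif, searched as TGANTCA on both strands. No κB match shown overlaps an AP-1 match. Each stretch reads 5′ to 3′ on the strand of its gene and lies upstream of the annotated start. Chemokines come first, with CXCL8 (chr4:73740420-73740498, plus strand), CXCL1 (chr4:73869303-73869335, plus strand), CXCL2 (chr4:74099252-74099284, minus strand) and CXCL3 (chr4:74038747-74038779, minus strand). They are followed by IL6 (chr7:22727116-22727148, plus strand), the NF-κB inhibitor TNFAIP3 (chr6:137867180-137867212, plus strand), ICAM1 (chr19:10270922-10270954, plus strand) and CSF2 (chr5:132073675-132073707, plus strand). The window of IL11 (chr19:55370541-55370571, minus strand) held an AP-1 match and none to the κB letters.
GLIS3 guide site: ccacatcgaccagcgcaaagGGG
CXCL8: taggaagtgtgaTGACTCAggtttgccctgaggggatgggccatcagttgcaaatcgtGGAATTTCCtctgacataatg
CXCL1: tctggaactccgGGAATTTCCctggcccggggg
CXCL2: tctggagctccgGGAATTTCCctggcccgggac
CXCL3: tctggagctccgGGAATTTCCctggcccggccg
IL6: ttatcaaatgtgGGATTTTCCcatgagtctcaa
TNFAIP3: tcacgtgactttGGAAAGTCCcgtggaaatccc
ICAM1: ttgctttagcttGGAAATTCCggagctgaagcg
CSF2: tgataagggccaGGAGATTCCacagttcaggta
IL11: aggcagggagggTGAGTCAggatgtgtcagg

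The κB match had the same letters in CXCL1, CXCL2, CXCL3 and CXCL8, and it began 78, 77, 78 and 91 bases before the start of these genes. In IL6 it began 72 bases before the start and in TNFAIP3 67. Promoter windows of 250 bases before to 50 after the start were at hand for 8846 of 10960 gene symbols tested. The κB motif was present in 5.57% of all 27305 genes with a window and in 6.39% of those tested. It was present in 9.44% of the genes that rose at 6 h in GLIS3 CRISPRko (111 of 1176), in 23.2% of those that rose by more than 3 on the log2 scale (22 of 95) and in 5.44% of those that fell. The AP-1 motif was present in 9.37% of all genes, 6.85% of those tested, 10.5% of those that rose and 5.65% of those that fell. These shares describe letters in a short window and were not tested.

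Library depth and markers bear on all that follows. Estimated counts summed to 5064089 to 6827644 per library at 0 h and to 2963560 to 3479573 at 6 h in GLIS3 CRISPRko, so the later libraries were shallower. The 50 most abundant genes took 30.7% of counts in the replicate 3 library of GLIS3 CRISPRko at 0 h, against 39% and 39.3% in the other 0 h libraries, and 33.8% in control replicate 1 at 6 h. Fibroblast markers were present in all 6 libraries, with VIM at 15028 to 20391 and COL1A2 at 2265 to 3592 TPM (an abundance scaled for transcript length and library depth). Among markers of other cells EPCAM, KRT5, KRT14, KRT19 (epithelial), CDH5, KDR, CLDN5 (endothelial), LYZ, CD3E (leukocyte), MYH11 and DES (smooth muscle) were at 0 in all 6. Others of the same lists were present. The 7 epithelial markers summed to 2150 to 2444 TPM at 0 h and 1656 to 1844 TPM at 6 h, nearly all of it KRT18 (2120 to 2421 and 1640 to 1833 TPM), with KRT8 at 21.5 to 30.2 and 10.0 to 16.4 TPM. The 8 leukocyte markers summed to 27.3 to 44 and 19.4 to 25.7 TPM, mostly the lysosomal gene CD68 (27.1 to 43.1 and 19.1 to 25.3 TPM). The 5 smooth muscle markers summed to 106 to 185 and 184 to 279 TPM, from ACTG2 (55.3 to 134 and 80.6 to 179 TPM) and SMTN, which rose (50.8 to 63.7 and 95.1 to 103 TPM). The 6 endothelial markers summed to at most 0.583 TPM. The part of these markers in the results was not tested. Of 12 fibroblast markers PDGFRA fell and the other 11 did not pass the test. The fall of PDGFRA was not called with DESeq2, with its size factors, after thinning to 1 depth or without replicate 3 at 0 h, while 4 fibroblast markers were lower on log2(TPM + 1) and 4 with abundance-dependent offsets.

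GLIS3 itself was at 0.354, 0.144 and 0.395 normalized CPM (counts scaled for library depth and composition) in the GLIS3 CRISPRko libraries at 0 h, which is 2, 1 and 3 estimated reads. At 6 h it was at 1.37, 1.49 and 1.61 CPM, or 4, 3 and 5 reads. The times do not overlap (log2 fold change 2.24 ± 0.64, adjusted p = 0.00999, edgeR quasi-likelihood test with Benjamini-Hochberg adjustment, ± SE here and for every log2 fold change below). This SE is the absolute log2 fold change divided by the square root of the F statistic of the test. It is approximate, and for genes with few reads at 0 h it can be smaller than counting error alone. In control cells GLIS3 was at 2.03, 1.45 and 2.16 CPM at 0 h and 6.47, 4.78 and 4.42 CPM at 6 h, also a rise (log2 fold change 1.49, adjusted p = 0.0126). All knockout libraries lay below all control libraries at each time. The difference was -2.55 ± 0.56 on the log2 scale at 0 h (adjusted p = 0.0355) and -1.8 ± 0.48 at 6 h, which did not pass (adjusted p = 0.0925). An edit in a coding exon need not lower the amount of a transcript, so these few reads are an incomplete check of the knockout.

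Of 10962 genes tested, 1443 (13.2%) were higher and 1182 (10.8%) lower at 6 h than at 0 h in GLIS3 CRISPRko at an adjusted p-value under 0.05, or 23.9% in either direction. Rises were the larger changes: 794 genes (7.24%) rose and 519 (4.73%) fell by more than 2-fold, and 128 rose and 47 fell by more than 3 on the log2 scale. The 6 h libraries lay wholly above the 0 h libraries for 18.5% of genes and wholly below for 21.5%. The median change over all genes was -0.10 on the log2 scale. The balance of rises and falls depended on the scaling: upper-quartile factors gave 1218 higher and 1702 lower genes (median of all genes -0.20), and limma on log2(TPM + 1) gave 507 and 2761 (median -0.43). The number of falls was 751 without replicate 3 at 0 h, and 702, 579 and 784 without replicates 1, 2 and 3 at 6 h.

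**Figure D1:**
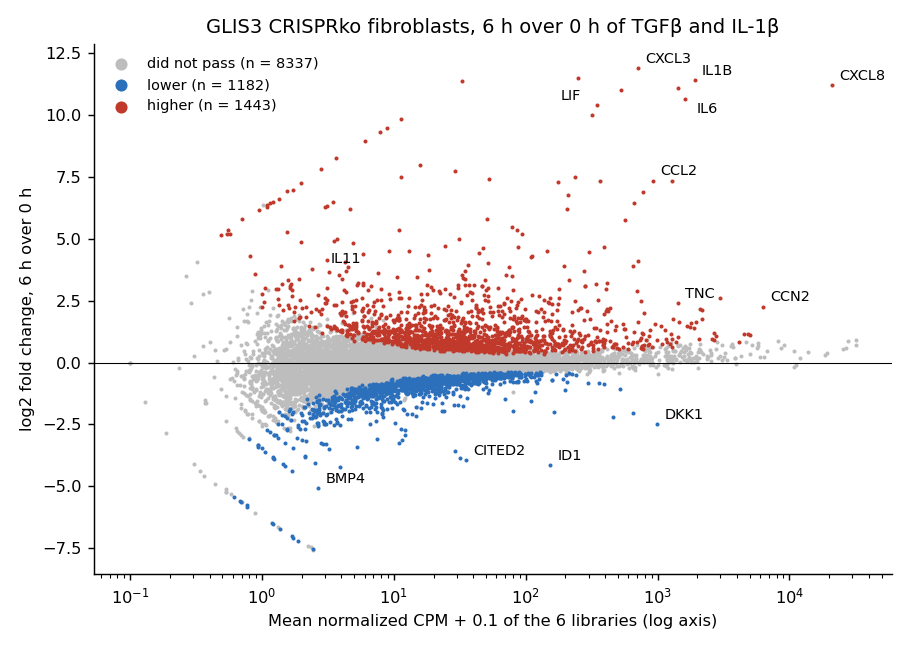
Each point is 1 of the 10962 genes tested, with the mean normalized CPM + 0.1 of the 6 GLIS3 CRISPRko libraries on a log x axis and the log2 fold change of 6 h over 0 h on the y axis; red genes were higher (1443), blue lower (1182) and grey did not pass. CXCL8 lies farthest right among the labelled genes at a log2 fold change of 11.21, and the labelled genes that fell lie between -2.49 (DKK1) and -5.09 (BMP4).

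Chemokines that attract neutrophils, which carry the ELR motif and bind CXCR2, had the highest median of the gene lists, and all 6 tested rose (median log2 fold change 11.15). CXCL8 (interleukin-8) was at 5.83, 9.38 and 37.1 CPM at 0 h and 41655, 49663 and 34888 CPM at 6 h (log2 fold change 11.21 ± 0.72, adjusted p = 4.16e-14). By mean TPM it moved from rank 3003 to rank 1 of all genes in the table. CXCL1 was at 1.24, 0.721 and 1.84 CPM and then 2278, 3756 and 2527 CPM (log2 fold change 11.09 ± 0.42, adjusted p = 5.76e-20), and CXCL3 at 0.177, 0.577 and 0.263 CPM and then 1189, 1795 and 1266 CPM (log2 fold change 11.9 ± 0.42, adjusted p = 1.61e-20). For each of these genes the times are far apart relative to the spread of the libraries. CXCL2 had 3 reads in all at 0 h and 3844 at 6 h, a ratio of 3220 with a 95% counting interval of 1101 to 15621. These 4 genes, whose κB matches are printed above, lie on chromosome 4 between 73740569 and 74099195. CXCL3 had 7 reads in all at 0 h, and its ratio of 3954 had a 95% counting interval of 1918.5 to 9837, wider than its SE implies. Intervals here and below cover counting error only.

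Of 18 other chemokines 7 had enough reads to be tested, of which 5 rose (71.4%, against 13.2% of all genes) and CXCL12 fell. Members without reads in GLIS3 CRISPRko at 0 h could rise but not fall, and the counts of rises include them. They are CCL3 and CCL20 here, CXCL6 among the ELR chemokines, and CSF3, TNF, TNIP3, ELF3 and SAA1 in lists below. Members with very few reads at 0 h could hardly be called lower either and are also counted as rises. Among them are CCL5 and CCL7 here, CXCL2 and CXCL5 among the ELR chemokines, and IL1A and MMP12 in lists below. CCL2, which attracts monocytes, was at 11.7, 11.5 and 10.3 CPM at 0 h and 1699, 2250 and 1516 CPM at 6 h (log2 fold change 7.35 ± 0.36, adjusted p = 2.73e-17). CCL20, the ligand of CCR6, had no reads at 0 h and was at 15.4, 14.9 and 16.1 CPM at 6 h, at least 105-fold higher when 3 reads are allowed over the 0 h group. CCL5 had 1 read at 0 h and 52 at 6 h, a ratio of 131 with a 95% counting interval of 22.4 to 5260. CCL7 had 1 and 47, a ratio of 118 with a 95% counting interval of 20.2 to 4763.

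Cytokines and growth factors of stromal cells moved in the same direction, with 17 of 20 higher (85%, against 13.2% of all genes) and 0 lower (median 3.75). IL6 was at 0.884, 1.44 and 3.42 CPM at 0 h and 2840, 3832 and 3087 CPM at 6 h (log2 fold change 10.65 ± 0.45, adjusted p = 5.59e-19). LIF, of the IL-6 family, was at 0.177, 0 and 1.18 CPM and then 646, 900.4 and 544 CPM (log2 fold change 10.4 ± 0.43, adjusted p = 3.36e-19). Colony-stimulating factors, which act on myeloid cells, rose as well. CSF2 was at 0, 0.288 and 1.05 CPM and then 905, 1216 and 1041 CPM (log2 fold change 11 ± 0.41, adjusted p = 4.77e-20). CSF3 had no reads at 0 h and was at 67.9, 53.5 and 74.6 CPM at 6 h, at least 449.8-fold higher on the same 3-read floor. CSF1 was present before treatment, at 6.35 to 7.07 CPM, and reached 164 to 178 CPM (log2 fold change 4.67 ± 0.20, adjusted p = 5.46e-19). INHBA, the βA subunit of activin, rose from 0.288 to 1.05 to 555 to 688 CPM (log2 fold change 10.02 ± 0.37, adjusted p = 3.37e-20). EREG, a ligand of the epidermal growth factor receptor, rose from 17.9 to 30.5 to 354 to 759 CPM (log2 fold change 4.46 ± 0.28, adjusted p = 3.28e-14).

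IL11, the gene that carries the reporter, also rose, from low levels. It was at 1.59, 0.865 and 0.922 CPM at 0 h (9, 6 and 7 reads) and 15.4, 16.8 and 9.04 CPM at 6 h (45, 34 and 28 reads). The times do not overlap (log2 fold change 3.6 ± 0.45, adjusted p = 1.65e-07). By mean TPM, IL11 was at 7.31 ± 1.6 (SD, n = 3) at 6 h, when IL6 was at 3915 ± 196 and CXCL8 at 32224 ± 2795. In control cells IL11 was at 2.43, 1.45 and 3.24 and then 11.9, 17.9 and 12 CPM (log2 fold change 2.59). The knockout response exceeded that of control by 1.01 ± 0.62 on the log2 scale, which did not pass (adjusted p = 0.715). Later in the time course IL11 in GLIS3 CRISPRko was at 5.32 to 12 CPM at 12 h and 6.38 to 10.0 CPM at 24 h. In control it was at 10.8 to 25.4 CPM at 12 h and 5.14 to 14.5 CPM at 24 h. The 12 h means were 8.63 CPM in GLIS3 CRISPRko and 17.3 CPM in control, with overlapping libraries, and this difference was not tested.

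**Figure D2:**
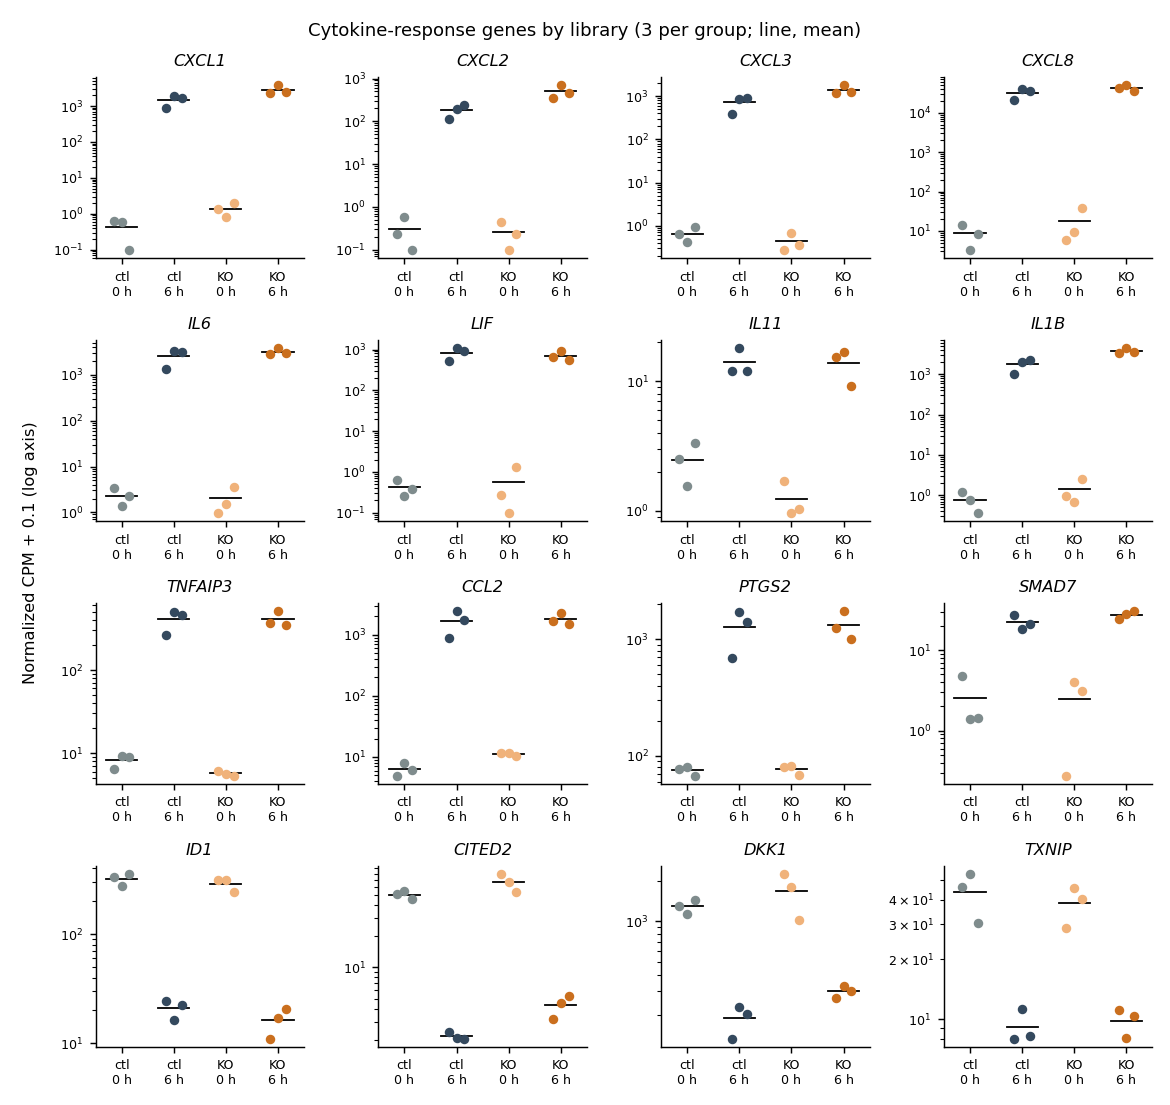
Normalized CPM + 0.1 on log y axes for 16 genes, 1 panel each, in control (ctl) and GLIS3 CRISPRko (KO) cells at 0 h and 6 h; points are the 3 libraries of a group and the line is their mean. In each panel the knockout libraries at 6 h lie apart from those at 0 h, below them for ID1, CITED2, DKK1 and TXNIP and above them for the other 12 genes.

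The IL-1 pathway changed at a minority of its members: 5 of 16 rose (31.2%, against 13.2% of all genes), 0 fell and 11 did not pass (median 0.24). IL1B mRNA was at 0.884, 0.577 and 2.5 CPM at 0 h and 3387, 4442 and 3636 CPM at 6 h (log2 fold change 11.42 ± 0.47, adjusted p = 3.36e-19). IL1A had 2 reads at 0 h and 245 at 6 h, a ratio of 308 with a 95% counting interval of 84.3 to 2556. IRAK2, a kinase of the receptor complex, was at 1.94, 3.17 and 6.06 CPM and then 77.5, 91.7 and 83 CPM (log2 fold change 4.44 ± 0.28, adjusted p = 3.66e-14). MAP3K8, a kinase upstream of ERK, was at 0, 1.3 and 0 CPM and then 8.92, 6.44 and 8.07 CPM (log2 fold change 4.08 ± 0.61, adjusted p = 4.29e-06). For these genes every 6 h library lay above every 0 h library.

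NF-κB subunits and their feedback inhibitors rose in 20 of 23 cases (87%, against 13.2% of all genes) with 0 falling (median 2.87). The subunit genes NFKB1, NFKB2, RELA, RELB and REL were all among them. TRAF1, an adaptor of tumour necrosis factor receptors, was at 3.71, 3.75 and 3.82 CPM at 0 h and 379, 483 and 387 CPM at 6 h (log2 fold change 6.78 ± 0.23, adjusted p = 1.1e-20). TNFAIP3, which encodes the ubiquitin-editing inhibitor A20, was at 6.01, 5.48 and 5.27 CPM and then 368, 509.9 and 345 CPM (log2 fold change 6.19 ± 0.24, adjusted p = 5.76e-20). Libraries of each time were close together and the times far apart for both genes. ZC3H12A, a ribonuclease that degrades cytokine mRNAs, rose from 1.05 to 2.3 to 92.6 to 104 CPM (log2 fold change 5.78 ± 0.24, adjusted p = 5.59e-19). The inhibitor-of-apoptosis genes BIRC3 and BIRC2 rose by 5 ± 0.23 and 2.96 ± 0.17 on the log2 scale. TNIP3, a partner of A20, had no reads at 0 h and 138 at 6 h, at least 116-fold higher on the 3-read floor.

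Adhesion molecules and immune ligands rose in 11 of 15 cases (73.3%, against 13.2% of all genes) with 0 falling (median 2.11). ICAM1, which binds leukocyte integrins, was at 1.41, 3.03 and 3.16 CPM at 0 h and 431, 579.8 and 407 CPM at 6 h (log2 fold change 7.49 ± 0.29, adjusted p = 1.04e-19). SOD2, the mitochondrial superoxide dismutase, was at 15.2, 13.8 and 15.4 CPM and then 1230, 1528 and 1139 CPM (log2 fold change 6.45 ± 0.30, adjusted p = 6.1e-18). CD274, the ligand of the inhibitory receptor PD-1, rose from 31.8 to 47.9 to 272 to 459.6 CPM (log2 fold change 3.35 ± 0.27, adjusted p = 6.98e-12), and CD82 and the hyaluronan receptor CD44 rose by 3.07 ± 0.19 and 2.11 ± 0.24 on the log2 scale. ADORA2A, an adenosine receptor outside the lists, had no reads at 0 h and 19.7 to 26.8 CPM at 6 h, at least 147-fold higher. Of 33 interferon-stimulated genes 8 rose (24.2%, against 13.2% of all genes), 0 fell (against 10.8%) and 25 did not pass (median 0.48). In either direction 24.2% were called, close to the 23.9% of all genes. Among those that rose were GBP1 (2.19 ± 0.21), GBP2 (1.13 ± 0.23), the peptide transporter TAP1 (1.66 ± 0.20) and the RNA sensor RIGI (2.28 ± 0.29).

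Of 8 AP-1 transcription factors tested 6 rose (75%, against 13.2% of all genes) and 0 fell at 6 h (median 1.27). JUN and FOSL2 did not pass, and FOS had too few reads to be tested. MAFF rose from 7.5 to 11.8 to 119 to 170.0 CPM (3.87 ± 0.25), JUNB from 11.1 to 15.7 to 66.9 to 73.6 CPM (2.34 ± 0.26), ATF3 from 0.288 to 0.658 to 8.71 to 12 CPM (4.38 ± 0.51), FOSL1 from 82.9 to 167 to 228 to 381 CPM (1.28 ± 0.25) and MAFG by 1.12 ± 0.24. Of 19 other immediate-early genes 13 rose (68.4%, against 13.2%) and 0 fell, and EGR1, NR4A1, SRF, IER5, KLF5 and SNAI1 did not pass. IER3, a survival gene and NF-κB target, was at 15.4, 16 and 16.5 CPM at 0 h and 2300, 3122 and 2317 CPM at 6 h (log2 fold change 7.33 ± 0.39, adjusted p = 3.33e-16). The transcription factors BHLHE40, ETS1, KLF6 and SNAI2 rose by 3.13 ± 0.20, 2.76 ± 0.20, 2.21 ± 0.17 and 1.38 ± 0.16 on the log2 scale. Inhibitors of MAP kinase signalling and mRNA decay factors rose in 10 of 18 cases (55.6%, against 13.2%) with 0 falling. SPRY2 rose from 3.89 to 6.58 to 38.1 to 39.6 CPM (2.9 ± 0.34), SPRY4 by 2.02 ± 0.23, the ERK phosphatase DUSP6 by 1.39 ± 0.21 and PPP1R15A, a phosphatase subunit of the stress response, by 2.35 ± 0.17.

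In the JAK-STAT list, which holds receptors and transducers of the IL-6 family and their inhibitors, IL6ST (gp130, the shared receptor chain) was at 39.8, 44.9 and 45.4 CPM at 0 h and 126, 120.4 and 96.5 CPM at 6 h (log2 fold change 1.39 ± 0.16, adjusted p = 2.53e-08). OSMR, the oncostatin M receptor, rose from 25.6 to 29.6 to 65.8 to 85.4 CPM (1.42 ± 0.17), JAK1 by 1.15 ± 0.19 and STAT5A by 3.1 ± 0.50. Of 19 members 6 rose (31.6%, against 13.2% of all genes), which were these 4 with STAT3 and the inhibitor SOCS3. The 3 that fell (15.8%, against 10.8%) were the inhibitors SOCS2, SOCS5 and PIAS3, and 10 did not pass (median 0.15). On log2(TPM + 1) 4 members were higher and 4 lower.

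In the TGFβ list of receptors, SMADs and feedback genes 9 of 24 rose (37.5%, against 13.2% of all genes). In this list 0 fell (against 10.8%) and 15 did not pass (median 0.55). On log2(TPM + 1) 5 of 23 members were higher and 1 lower (median 0.10). SMAD7, the inhibitory SMAD, was at 0.177, 3.89 and 3.03 CPM at 0 h and 24.3, 27.8 and 30.3 CPM at 6 h (log2 fold change 3.46 ± 0.41, adjusted p = 6.86e-08). SKIL, a repressor of SMAD activity, rose from 2.74 to 6.98 to 17.3 to 23.3 CPM (2.06 ± 0.27), the ligand TGFB2 from 3.32 to 4.61 to 19.7 to 34 CPM (2.78 ± 0.34) and PMEPA1, a TGFβ-induced inhibitor, from 0 to 0.527 to 5.95 to 8.92 CPM (5 ± 0.57). Of 22 YAP and TEAD factors and targets 5 rose (22.7%, against 13.2% of all genes) and WWTR1 fell (4.55%, against 10.8%). In either direction 27.3% were called, close to the 23.9% of all genes. CCN2 was at 2531, 2449 and 1521 CPM and then 10772, 11662 and 8642 CPM (log2 fold change 2.26 ± 0.35, adjusted p = 7.02e-06). F3, tissue factor, was at 183, 159.7 and 116 CPM and then 597, 771 and 601 CPM (log2 fold change 2.1 ± 0.21, adjusted p = 1.38e-09). The kinase NUAK2 and AMOTL1 rose by 2.43 ± 0.29 and 1.07 ± 0.18 on the log2 scale. None of the 5 Hedgehog and GLI-family genes tested passed.

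Of 12 genes of bone morphogenetic protein (BMP) signalling 6 fell (50%, against 10.8% of all genes) and 3 rose (25%, against 13.2%), with a median of -0.89. ID1, an inhibitor of differentiation and a BMP-SMAD target, was at 310.3, 315 and 244 CPM at 0 h and 11, 16.8 and 20.7 CPM at 6 h (log2 fold change -4.16 ± 0.23, adjusted p = 7.58e-16). ID3, of the same family, was at 337, 264 and 178 CPM and then 53.5, 71.4 and 71.7 CPM (log2 fold change -1.99 ± 0.24, adjusted p = 8.13e-08). The ligand BMP4 had 100 reads at 0 h and 1 at 6 h, a ratio of 39.8 with a 95% counting interval of 6.98 to 1587, 0 h over 6 h. ID2 and HEY1 fell as well, while FSTL3, the receptor BMPR2 (1.38 ± 0.17) and the extracellular modulator TWSG1 (0.90 ± 0.22) rose. Without replicate 3 at 0 h 4 members fell, as did 4 of 11 after thinning.

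Other genes with the largest falls included transcription regulators. CITED2, a co-regulator that binds CBP and p300, was at 79, 65.9 and 52.9 CPM at 0 h and 3.09, 4.46 and 5.16 CPM at 6 h (log2 fold change -3.95 ± 0.28, adjusted p = 5.43e-13). MAB21L1 was at 65.8, 61 and 49.8 CPM and then 3.77, 3.96 and 4.2 CPM (log2 fold change -3.88 ± 0.28, adjusted p = 6.38e-13), and the protocadherin gene PCDH18 at 64.2, 50.5 and 45.6 CPM and then 5.49, 2.97 and 4.52 CPM (log2 fold change -3.58 ± 0.31, adjusted p = 4.52e-11). The transcription factor genes OSR2, TBX5 and LHX9 had log2 fold changes of -3.12 ± 0.49, -3.11 ± 0.44 and -2.67 ± 0.33. Those of AVPI1, the neurotrophin BDNF and FAM50B were -3.27 ± 0.37, -2.73 ± 0.34 and -2.5 ± 0.40. The read-through gene ARPIN-AP3S2, which shares reads with its neighbours and is therefore uncertain, had -2.92 ± 0.57.

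DKK1, a secreted WNT inhibitor, was among the more abundant transcripts that fell, at 2242, 1784 and 1029 CPM at 0 h and 267, 327 and 303 CPM at 6 h (log2 fold change -2.49 ± 0.25, adjusted p = 1.22e-09). In the WNT list 5 of 14 fell (35.7%, against 10.8% of all genes), among them the receptors FZD2 (-2.3 ± 0.57) and FZD7 (-1.25 ± 0.31), and 2 rose (14.3%, against 13.2%). WNT5A was at 40.3, 47.7 and 54.4 CPM and then 189.7, 186 and 79.4 CPM (log2 fold change 1.67 ± 0.28, adjusted p = 2.56e-05). Without replicate 3 at 0 h 3 members fell and 1 rose. In the Notch list the receptor NOTCH2 (1.29 ± 0.19) and the ligand DLL4 (1.91 ± 0.38) rose, and the other 5 of 7 did not pass. That is 28.6% called, against 23.9% of all genes.

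Over the 4 matrix lists 16 of 61 genes were called (26.2%, against 23.9% of all genes), and all 16 rose. By direction, 26.2% rose, against 13.2% of all genes, and 0% fell, against 10.8%. Of 7 fibrillar collagens COL27A1 (1.91 ± 0.42) and COL5A2 (0.75 ± 0.27, with overlapping libraries) rose, 1 of them without replicate 3 at 0 h, and on log2(TPM + 1) 0 were higher and 1 lower. COL1A1 was at 4102, 3098 and 1272 CPM at 0 h and 3146, 5607 and 2275 CPM at 6 h (log2 fold change 0.38 ± 0.50, adjusted p = 0.62). COL1A2 was at 12938, 13766 and 7109 CPM and then 12995, 16057 and 9710 CPM (log2 fold change 0.20 ± 0.36, adjusted p = 0.733). The times overlap for both genes, and the sign of both changed with the scaling. FN1, fibronectin, was at 25652, 26375 and 14595 CPM and then 41424, 56605 and 26014 CPM (log2 fold change 0.90 ± 0.41, adjusted p = 0.116). Of 15 other collagens 4 rose: COL4A1 (1.34 ± 0.29), COL16A1 (0.99 ± 0.17), COL7A1 (0.64 ± 0.19) and COL6A3 (0.60 ± 0.22). On log2(TPM + 1) 1 of 13 was higher and 2 were lower. Collagen-modifying enzymes rose in 6 of 18 cases, including LOX, which cross-links collagen (1.17 ± 0.23), P3H2 (2.06 ± 0.28), ADAMTS2 (1.18 ± 0.22), PLOD2 (1.02 ± 0.25) and BMP1 (0.74 ± 0.17). On log2(TPM + 1) 4 of these enzymes were higher and 4 lower.

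Of 21 matrix glycoproteins and proteoglycans 4 rose (19%, against 13.2% of all genes) and 17 did not pass. HAS2, a hyaluronan synthase, was at 21.7, 32 and 34.6 CPM at 0 h and 835, 915 and 511 CPM at 6 h (log2 fold change 4.67 ± 0.29, adjusted p = 1.87e-14). TNC, tenascin-C, was at 465, 473 and 426 CPM and then 2887, 3122 and 1190 CPM (log2 fold change 2.4 ± 0.31, adjusted p = 2.35e-07). TGFBI, a secreted matrix protein, rose from 133 to 152 to 229.8 to 324 CPM (0.87 ± 0.24). Metalloproteinases and their inhibitors rose in 10 of 17 cases (58.8%, against 13.2% of all genes), and ADAMTS1 fell (-1.94 ± 0.17). MMP3, stromelysin, was at 209, 264 and 208 CPM and then 1094, 1508 and 1236 CPM (log2 fold change 2.49 ± 0.32, adjusted p = 2.14e-07). MMP12 had 2 reads at 0 h and 180 at 6 h, a ratio of 226 with a 95% counting interval of 61.7 to 1882, and MMP10 rose by 4.83 ± 0.57 on the log2 scale.

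Of 18 contractile genes, MYH9 (1.17 ± 0.30) and ACTN1 (0.84 ± 0.30) rose and LMOD1 (-0.70 ± 0.24, with overlapping libraries) fell, a share of 16.7% against 23.9% of all genes. The counts moved with the method, to 4 higher and 0 lower with DESeq2, 1 and 2 with abundance-dependent offsets, and 3 and 1 on log2(TPM + 1). TAGLN was at 7194, 6590 and 3350 CPM at 0 h and 7301, 9428 and 6876 CPM at 6 h (log2 fold change 0.46 ± 0.31, adjusted p = 0.302). In the prostaglandin list 3 of 11 rose and 0 fell, 27.3% called against 23.9% of all genes. Without replicate 3 at 0 h 1 of 11 rose, and on log2(TPM + 1) 1 was higher and 1 lower. PTGS2, the inducible cyclooxygenase, was at 80.4, 81.6 and 69 CPM and then 1261, 1749 and 1001 CPM (log2 fold change 4.12 ± 0.25, adjusted p = 1.43e-14). PTGES3 (0.69 ± 0.23) and the transporter SLCO2A1 (2.77 ± 0.90, with overlapping libraries) were the others that rose.

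The scale mattered for lists near 0: on log2(TPM + 1), where the median of all genes was -0.43, the median turned below 0 for the IL-1 pathway (-0.21), the JAK-STAT list (-0.21), the YAP and TEAD list (-0.02), fibrillar collagens (-0.04), collagen-modifying enzymes (-0.34), matrix glycoproteins (-0.31), contractile genes (-0.06), the prostaglandin list (-0.05), ribosome and amino acid genes (-0.34) and glycolysis and hypoxia genes (-0.01). It stayed above 0 for the NF-κB (1.45), ELR chemokine (9.49) and stromal cytokine (2.29) lists.

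**Figure D3:**
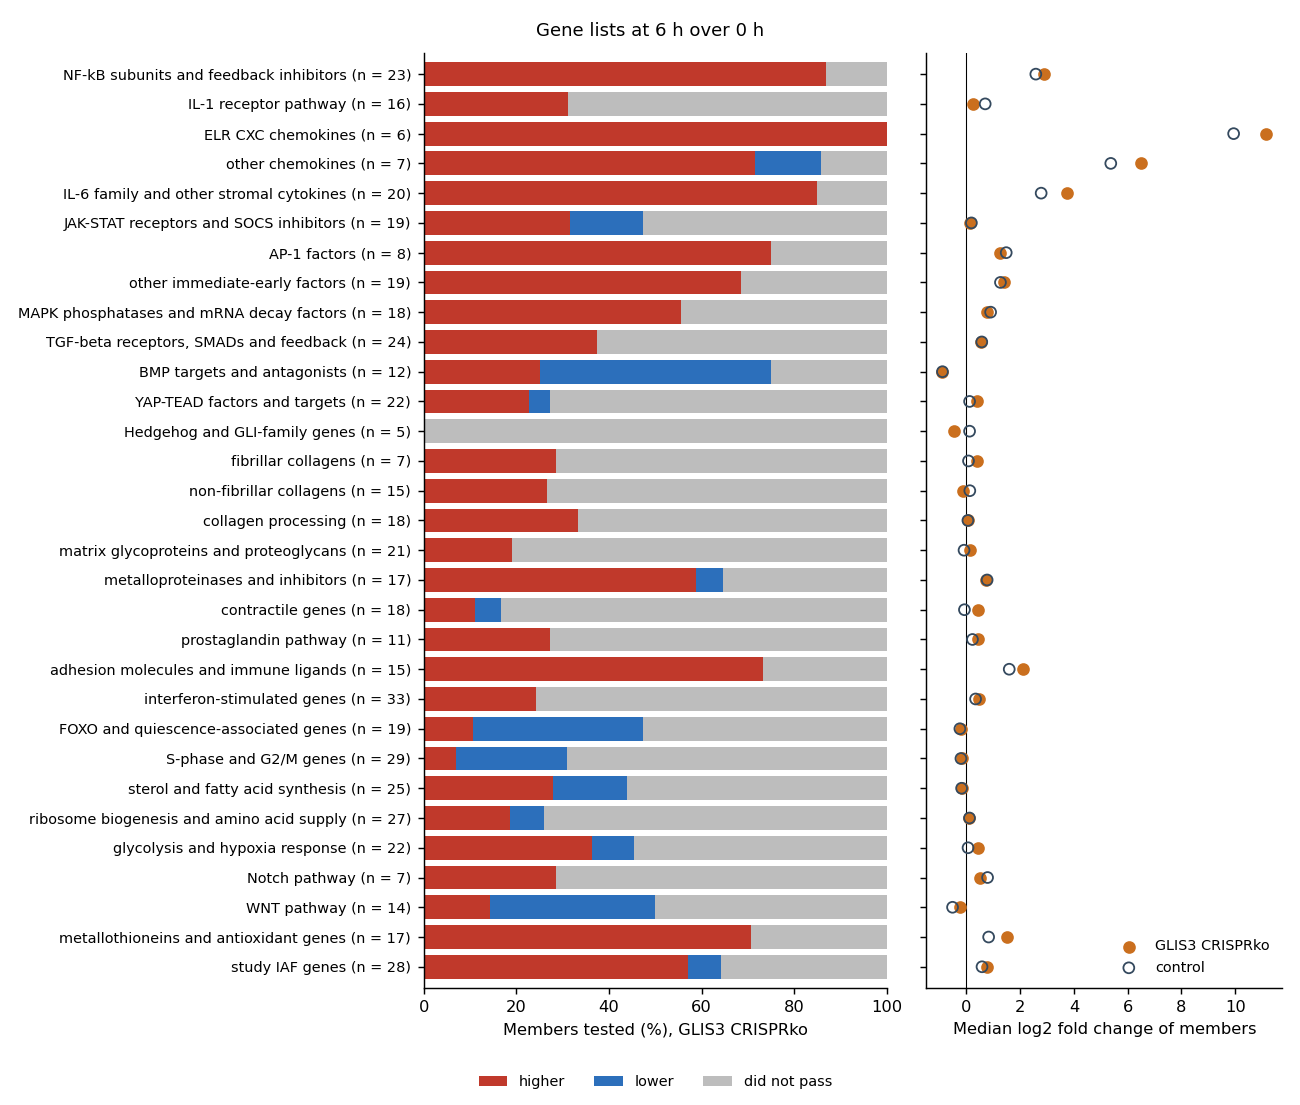
For the gene lists with 5 or more members tested, the left panel gives the percentage of members higher (red), lower (blue) or not passing (grey) in GLIS3 CRISPRko at 6 h, and the right panel the median log2 fold change of the same members in GLIS3 CRISPRko (filled) and control (open). ELR chemokines have the highest medians, 11.15 in GLIS3 CRISPRko and 9.94 in control, and BMP genes the lowest, -0.89 in both.

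Metallothioneins and antioxidant genes rose in 12 of 17 cases (70.6%, against 13.2% of all genes) with 0 falling (median 1.51). SLC39A14, a zinc and iron importer, was at 74.1, 82.6 and 91.5 CPM at 0 h and 1258, 1443 and 962 CPM at 6 h (log2 fold change 3.88 ± 0.26, adjusted p = 1.67e-13). MT1E and MT1X rose by 3.18 ± 0.24 and 3.37 ± 0.29 on the log2 scale, and the split of reads between these closely related genes is uncertain. HMOX1, haem oxygenase, rose from 4.48 to 6.63 to 32.2 to 57.1 CPM (2.96 ± 0.29) and TXNRD1, thioredoxin reductase, from 672 to 1244 to 2672 to 4070 CPM (1.77 ± 0.25).

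Metabolic lists were mixed. Of 22 glycolysis and hypoxia genes 8 rose (36.4%, against 13.2% of all genes) and 2 fell (9.09%, against 10.8%), with a median of 0.43. On log2(TPM + 1) 3 of these were higher and 5 lower. HIF1A rose from 244 to 299 to 608 to 815 CPM (1.33 ± 0.23), the glucose transporter SLC2A1 by 1.05 ± 0.18, and the regulatory enzymes PFKFB3 and PFKFB4 by 1.5 ± 0.28 and 1.5 ± 0.21. Of 25 sterol and fatty acid genes 7 rose (28%, against 13.2% of all genes), including SQLE (1.48 ± 0.16), STARD4 (1.5 ± 0.27) and CYP51A1 (0.84 ± 0.17). In the same list 4 fell (16%, against 10.8%), including MVK (-1.68 ± 0.33), but 2 were higher and 7 lower on log2(TPM + 1). Of 27 ribosome biogenesis and amino acid supply genes 5 rose (18.5%, against 13.2% of all genes) and 2 fell (7.41%, against 10.8%). On log2(TPM + 1) 3 of them were higher and 6 lower. ATF4, a factor of the amino acid response, rose by 1.3 ± 0.19, the transporter SLC7A5 by 1.71 ± 0.21, the folate enzyme MTHFD2 by 1.28 ± 0.16 and NIP7 by 0.85 ± 0.17.

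Of 29 S-phase and G2/M genes 7 fell (24.1%, against 10.8% of all genes) and 2 rose (6.9%, against 13.2%), with a median of -0.17. MCM2, a subunit of the replication helicase, was at 56.4, 64.6 and 62.1 CPM at 0 h and 38.8, 31.7 and 34.2 CPM at 6 h (log2 fold change -0.80 ± 0.16, adjusted p = 0.000242), and MCM6, CDC20 and CCNB2 had log2 fold changes of -0.69 ± 0.16, -0.88 ± 0.20 and -0.80 ± 0.14. The falls numbered 16 on log2(TPM + 1) and 14 with abundance-dependent offsets. Of 19 FOXO and quiescence-associated genes 7 fell (36.8%, against 10.8% of all genes), including CITED2, TXNIP (-1.96 ± 0.27) and BCL6 (-1.15 ± 0.34). In this list GADD45A (2.46 ± 0.21) and FBXO32 (3.21 ± 0.40) rose (10.5%, against 13.2%).

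The study names a set of genes of inflammation-associated fibroblasts (IAF). Of 28 tested 16 rose (57.1%, against 13.2% of all genes) and PDGFRA and SLC16A3 fell at 6 h (7.14%, against 10.8%), with a median of 0.76. Only 1 member fell with DESeq2, with its size factors, after thinning to 1 depth or without replicate 3 at 0 h. LIF, INHBA, PTGS2, MMP3, WNT5A, COL4A1 and TGFBI were among the 16, as was TFPI2, a protease inhibitor, at 11.7, 11.7 and 15.4 CPM at 0 h and 134, 159 and 144 CPM at 6 h (log2 fold change 3.48 ± 0.21, adjusted p = 1.32e-14). The study chose this set, so its direction is not independent evidence.

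Most genes called in GLIS3 CRISPRko had a change of the same sign in control cells. In control 1130 genes (10.3%) were higher and 614 (5.6%) lower, 15.9% in either direction. Of the 1443 genes higher in GLIS3 CRISPRko 885 were also higher in control, 61.3% of the former and 78.3% of the latter. Of the 1182 lower genes 364 were also lower in control, 30.8% of the former and 59.3% of the latter, and 0 genes were called in opposite directions. By sign alone, without a test, 1361 of the higher genes (94.3%) and 1101 of the lower genes (93.1%) moved the same way in control, against 74.2% of all genes tested. Genes higher in GLIS3 CRISPRko had a median log2 fold change of 1.07 there and 0.79 in control, and lower genes -0.91 and -0.46, and they were chosen on the knockout values. The difference of the responses passed for 1 gene (0.00912%), with a larger rise in GLIS3 CRISPRko, and for 0 genes (0.0%) in the other direction, by edgeR, while 869 genes had an unadjusted p under 0.05. DESeq2 called 41 genes and edgeR with no filter on low counts 63.

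**Figure D4:**
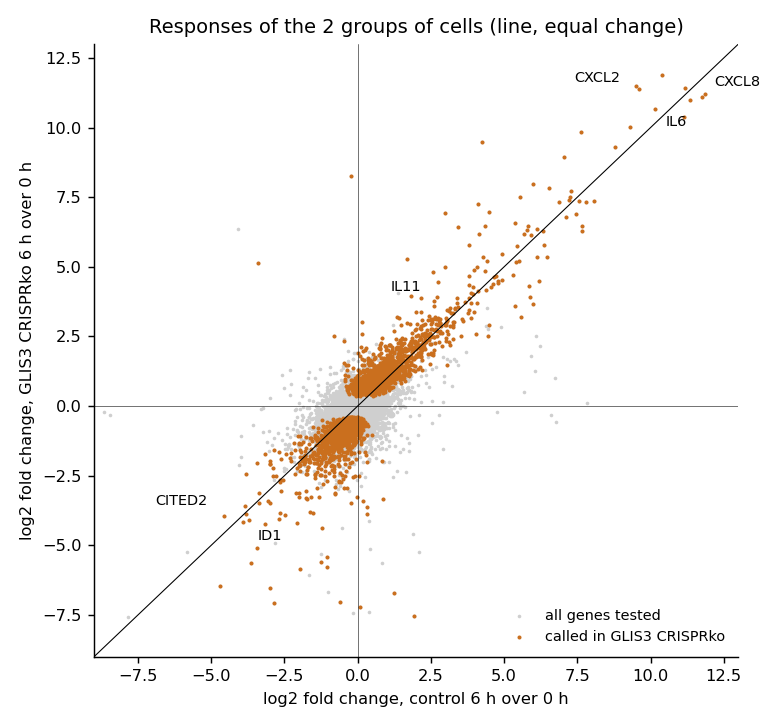
The log2 fold change of 6 h over 0 h in control (x axis) and GLIS3 CRISPRko (y axis) for the 10962 genes tested, with genes called in GLIS3 CRISPRko in orange and the line of equal change in black. CXCL8, IL6 and CXCL2 lie at the upper right and ID1 and CITED2 at the lower left, and CXCL2 lies above the line at 9.5 in control and 11.49 in GLIS3 CRISPRko, a difference that did not pass (adjusted p = 0.788).

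Among differences that did not pass, that of EREG had the smallest adjusted p (0.126). EREG rose by 4.46 in GLIS3 CRISPRko and 2.75 in control. CYP51A1 had log2 fold changes of 0.84 and -0.13 (adjusted p = 0.186), BIRC2 of 2.96 and 2.02 (adjusted p = 0.188) and TXNRD1 of 1.77 and 0.59 (adjusted p = 0.293). By DESeq2, EREG, BIRC2 and TXNRD1 passed, at adjusted p-values of 0.00242, 0.00589 and 0.00594. Chemokine differences had both signs and did not pass, 1.52 ± 0.87 for CXCL3 and -0.64 ± 0.71 for CXCL8. A difference that misses the threshold does not show that the cells responded alike, and its median SE over all genes was 0.39 on the log2 scale.

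**Figure D5:**
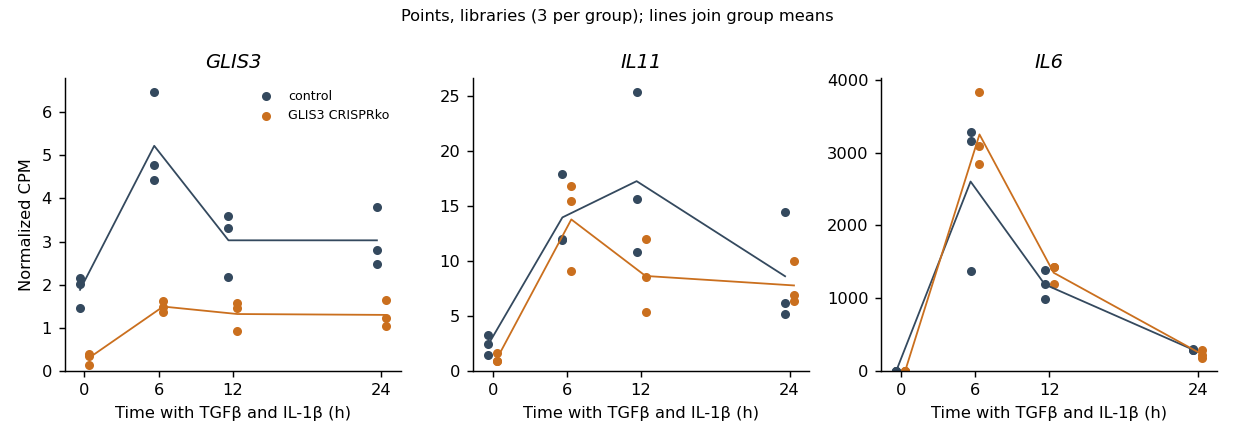
Normalized CPM (y axes, from 0) of GLIS3, IL11 and IL6 against time with TGFβ and IL-1β in h (x axis) in control and GLIS3 CRISPRko; points are the 3 libraries of a group, set slightly apart, and lines join group means. GLIS3 is lower in the knockout at every time, and IL6 at 6 h is at 2840 to 3832 CPM in the knockout and 1372 to 3286 CPM in control. IL11 overlaps between the cells at 6 h and at 12 h, when its mean is 8.63 CPM in the knockout and 17.3 CPM in control.

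Several of the strongest early rises had receded by 24 h in GLIS3 CRISPRko. CXCL8 was at 36381, 28592 and 31174 CPM at 12 h and 13051, 6962 and 5045 CPM at 24 h. IL6 was at 1424, 1197 and 1426 and 287, 216 and 174 CPM, and LIF at 22.1, 30.5 and 30.3 and 3, 1.52 and 3.19 CPM. All 24 h libraries of these genes in GLIS3 CRISPRko lay below all 6 h libraries and above all 0 h libraries. The control means receded as well between 6 h and 24 h. They moved from 32315 to 11965 CPM for CXCL8, from 2605 to 290 CPM for IL6 and from 836 to 6.12 CPM for LIF. The later times were not tested.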

How the data were processed

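mRNA was sequenced from 48 libraries, of which the 24 of the knockout arm (8 groups of 3) were fitted and 6 are described. Per the labels and the methods of the study, the authors selected mRNA with beads, made Nextera XT libraries, sequenced them on a NextSeq 500, trimmed with Trim Galore, removed ribosomal reads with SortMeRNA, aligned with STAR to GRCh38 and quantified with Salmon. Versions, annotation release and strand setting are not given in the sources used here. The authors deposited estimated counts per gene (6.38% of values not whole, rounded here to whole numbers) and TPM (abundance scaled for transcript length and depth) for 29744 genes. Both keep only relative amounts, so a few very abundant genes shift all others.

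Groups came from the labels. Genes were filtered with filterByExpr (minimum count 10, total 15), scaled by TMM and tested with edgeR 4.0.16 (R 4.3.3) quasi-likelihood tests with Benjamini-Hochberg adjustment, threshold 0.05. TPM was tested as log2(TPM + 1) with limma 3.58.1, and DESeq2 1.42.0 was an alternative. Members and gene lists were chosen with earlier results of these data known, and lists were described by counts and medians without a set test. Named were GLIS3 and IL11, the 12 largest rises and 12 largest falls without overlap at 10 CPM or more, up to 4 called members and 2 abundant uncalled members of each list, and genes leading the difference between responses. Of these 198 genes the called ones are given, apart from a few items not reported here, with COL1A1, COL1A2, FN1 and TAGLN, and other list members are named after their values were seen. No 2 libraries of a group were identical in the 24 pairs compared. Alternatives comprised other scalings, filters, tools, thinning, a replicate block and leaving out libraries.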

Additional observations from a re-analysis of the deposited data

How the results depend on the processing

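The number of genes called in GLIS3 CRISPRko (2625) stayed within 1.5 times under all alternatives but a minimum absolute log2 fold change of 1, which left 1313. Leaving out each library in turn gave 1789 to 2320. Of the 136 named genes called, 108 kept the call under each of 18 alternatives that could be computed and 28 lost it under at least 1, with 0 reversed. The rise of GLIS3 was lost with limma and no filter (0.20). In control (1744) limma on TPM gave 781, 763 and 766 with pseudocounts of 1 and 0.1 and with no filter, the minimum fold change gave 989, and leaving out libraries gave 1367 to 1513. The difference between responses (1 gene) rose to 41 genes with DESeq2 and 63 with no filter, and was 0 with limma on log2(TPM + 1), where 887 genes had an unadjusted p under 0.05. Leaving out libraries gave 1 to 4, with 4 only without replicate 3 of GLIS3 CRISPRko at 6 h. COL1A2 turned to -0.23 with limma on TPM in all 3 fits, -0.014 without replicate 3 at 0 h, -0.044 without both libraries of low top-50 share and -0.49 with loess offsets. COL1A1 turned to -0.042 with limma on TPM in all 3 fits, -0.023 without replicate 2 at 6 h and -0.13 with loess offsets, and TAGLN to -0.12 with loess offsets. Leaving out 1 library at a time, COL1A2 ranged from -0.014 to 0.40 and COL1A1 from -0.023 to 0.75. For these the cause was not tested. Leaving out both libraries of low top-50 share, loess offsets and thinning were chosen after seeing the data.

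Whether the replicate numbers pair the libraries was not settled. Deviations of same-numbered libraries at 0 h and 6 h correlated at -0.070, -0.014 and 0.047 in GLIS3 CRISPRko and at 0.022, 0.11 and 0.10 in control. Those of differently numbered libraries correlated at -0.11 to 0.13 in GLIS3 CRISPRko and -0.12 to 0.028 in control. The fit with the replicate block called 2577 genes in GLIS3 CRISPRko, 1732 in control and 1 in the difference. Depth limits the genes with few reads, GLIS3 and IL11 included.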
